A study of Mus musculus with 10 samples.

Results

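The 10 genes described here are 8 Toll-like receptors (Tlr1, Tlr2, Tlr3, Tlr4, Tlr6, Tlr7, Tlr9 and Tlr13), the co-receptor Cd14 and the adaptor Myd88. They were chosen by name, with earlier results of these data known, and all 10 were found among the 24453 genes of the deposited table. RNA was sequenced from microglia, the macrophages that reside in the brain. The cells were taken with magnetic beads from brains of untreated C57bl6 mice, and the 10 libraries fell into 4 groups. In the comparison of ages, 3 libraries came from mice aged 15 months (aged) and 3 from mice aged 10 weeks (young), which the series title calls wild type. The other comparison set 2 libraries with the label Rab7 deltaMG against 2 with the label Rab7 Control, and all 4 came from mice 3 months old. The product of Rab7 is a GTPase that directs late endosomes to lysosomes. The series design calls the mice of the deltaMG group null mutants. The promoter that drives the deletion, the alleles that the control mice carry and any pooling of animals were not given in the sources used here. Nothing in the labels ties replicates to different animals, so p-values measure the spread between libraries, which may be technical.

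Toll-like receptors recognise molecules of microbes and of damaged cells. Tlr1, Tlr2, Tlr4 and Tlr6 act mainly at the cell surface, where Tlr2 pairs with Tlr1 or Tlr6 to bind lipoproteins and Tlr4 binds lipopolysaccharide with the help of Cd14. Tlr3, Tlr7, Tlr9 and Tlr13 bind nucleic acids inside endosomes, where proteases cut several of them into their active form. Most of these receptors signal through Myd88, while Tlr3 signals through another adaptor, and the signal switches on genes of inflammation through NF-kB and interferon regulatory factors.

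Tlr1 and Tlr6 are neighbours on chromosome 5 and the only pair among the Toll-like receptor genes, Cd14 and Myd88 that shared stretches of 50 identical bases. Such windows made up 15.3% of the Tlr1 transcript and 12.5% of the Tlr6 transcript. The longest stretch that the pair shared, 229 bases of coding sequence, is shown because a read from inside it cannot be assigned to either gene by its bases. It lies at chr5:64925537-64925765 in Tlr1 and at chr5:64953828-64954056 in Tlr6, both on the minus strand (GRCm38).
Tlr1 and Tlr6 shared stretch: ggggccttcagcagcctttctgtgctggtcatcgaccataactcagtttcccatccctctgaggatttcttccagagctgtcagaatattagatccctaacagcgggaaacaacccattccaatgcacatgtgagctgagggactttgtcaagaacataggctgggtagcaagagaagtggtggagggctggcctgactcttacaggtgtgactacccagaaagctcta
How the authors' counting treated such reads is not given in the sources used here, so the values of Tlr1 and Tlr6 are uncertain to that extent. The promoter of Tlr2 is shown because Tlr2 had the largest difference among the 8 receptors in the comparison of ages. RefSeq (GRCm38.p6) held a window of 250 bases before to 50 bases after the gene start for 7 of the 10 genes. The Tlr2 window lies at chr3:83841559-83841858 on the minus strand, and capitals mark 2 stretches that match the kB consensus, the motif bound by NF-kB, searched on both strands.
Tlr2 promoter: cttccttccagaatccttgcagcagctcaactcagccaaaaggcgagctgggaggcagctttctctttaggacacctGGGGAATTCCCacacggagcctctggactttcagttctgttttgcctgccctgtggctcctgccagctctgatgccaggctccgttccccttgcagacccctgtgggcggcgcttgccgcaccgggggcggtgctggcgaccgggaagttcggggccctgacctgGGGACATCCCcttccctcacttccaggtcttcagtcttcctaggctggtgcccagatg
The capitals start 173 and 8 bases before the gene start. A match to the kB consensus was present in 8.46% of all 32851 promoter windows. Among the 7 genes, Tlr3 also held 1 match, 211 bases before its start, while Tlr1, Tlr6, Tlr9, Tlr13 and Myd88 held none. These are matches of letters, and binding was not measured.

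The libraries held 6098267 to 9907454 reads behind their scaling. Levels are given as RPM, read numbers scaled to a fixed library total. Of 7 microglial marker genes, P2ry12, Tmem119, Siglech, Sall1, Csf1r, Cx3cr1 and Fcrls, all 7 were detected in every library. Their summed level was 2775 to 3092 RPM in aged against 4376 to 4819 RPM in young libraries, and 3622 to 4685 RPM in libraries labelled deltaMG against 3642 to 3923 RPM in those labelled control. Of the 7, limma called 5 lower in aged libraries (P2ry12, Tmem119, Siglech, Sall1 and Cx3cr1), and 1 higher in libraries labelled deltaMG. That gene was Cx3cr1, the fractalkine receptor, at 965 and 1285 RPM in libraries labelled deltaMG, against 398 and 437 RPM in those labelled control (2.67-fold, limma adjusted p = 0.000158). Fcrls (log2 fold change -0.78, limma adjusted p = 0.102) and P2ry12 (-0.50, limma adjusted p = 0.179) had the opposite sign without a call. Cx3cr1 was at 689 to 741 RPM in aged and 1068 to 1174 RPM in young libraries, so the libraries labelled control were the lowest of the series. Genes of neutrophils, blood cells that carry Tlr2, Tlr4 and Cd14 themselves, were also present. The sum of 11 markers was 1614, 929 and 4141 RPM in aged replicates 1, 2 and 3, against 530 to 1350 RPM in young libraries. The same sum was 1131 to 1733 RPM in libraries labelled deltaMG, against 439 to 662 RPM in libraries labelled control. Of the 10 neutrophil markers tested, all 10 had positive log2 fold changes in both comparisons. Only Cxcr2 was called, higher in aged libraries (limma adjusted p = 0.0206) and in those labelled deltaMG (limma adjusted p = 0.0117). Markers of monocytes, 6 genes, summed to 126 to 365 RPM in aged against 46.1 to 75.6 RPM in young libraries. They summed to 81.0 to 115 RPM in libraries labelled deltaMG against 35.3 to 46.6 RPM in those labelled control. Of the 5 monocyte markers tested, limma called 4 higher in aged libraries, Ccr2, Itga4, Fn1 and Vcan. The largest log2 fold change was that of Vcan (3.26, limma adjusted p = 5.95e-05). Vcan reached the 10 RPM needed for testing only in aged libraries, so the filter favoured a higher level there. None of the 5 was called in libraries labelled deltaMG. Markers of macrophages at the brain's borders, 6 genes, summed to 31.3 to 83.0 RPM in aged against 26.2 to 28.2 RPM in young libraries, and to 47.2 to 48.8 RPM in libraries labelled deltaMG against 37.6 to 46.7 RPM in those labelled control. Among them F13a1 was called higher in aged libraries (log2 fold change 1.78, limma adjusted p = 0.0123). Fits with a score of the neutrophil markers as covariate are given below, while monocyte and border macrophage markers were not used as a covariate. How much of the receptor RNA came from any of these cells was not tested. Markers of plasmacytoid dendritic cells, Siglech, Tcf4 and Bst2, summed to 135 to 139.6 RPM in aged against 169 to 199.98 RPM in young libraries. They summed to 186 to 191 RPM in libraries labelled deltaMG against 186 to 213 RPM in those labelled control. Most of each sum was Siglech, also counted above as a microglial marker, at 87.1 to 93.3 RPM in aged and 126 to 150 RPM in young libraries. Bst2 was at 0.328 to 1.88 RPM over all libraries, and its mean was higher in aged than in young libraries. The sum therefore cannot tell these cells from microglia, and whether they were present was not tested. Sums were 25.4 to 53.8 RPM for astrocytes and 10.3 to 19.9 RPM for oligodendrocytes over all libraries. Sums for B cells (at most 3.05 RPM), T cells (at most 0.635 RPM), neurons (at most 4.95 RPM) and endothelial cells (at most 4.92 RPM) were low everywhere, and the endothelial marker Cldn5 was at 0 in all 10 libraries. Rab7 itself was at 72.2 and 79.4 RPM in the libraries labelled deltaMG, against 64.2 and 67.5 RPM in those labelled control, so its RNA was not lower where a null mutant is named. The 2 groups are therefore called by their labels throughout. Whether the labels are exchanged cannot be told from these values, and every direction given between these groups would turn if they were. Xist, the RNA that coats the inactive X chromosome of females, was at 0.127 to 0.940 RPM in aged against 1715 to 1771 RPM in young libraries, so age and sex cannot be told apart in that comparison. It was at 1171 and 1562 RPM in libraries labelled deltaMG, against 1410 and 924 RPM in those labelled control.

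Of the 10 genes, microglia expressed Tlr7, a receptor for single-stranded RNA, most highly. To compare genes with one another, RPM was divided by the length of all annotated exons of the gene together, giving RPM per kb. For Tlr4 that length was 5556 bases, against 4077 in its longest protein-coding transcript, and for Tlr3 it was 5207 against 4407. The order of genes with close values therefore depends on the length used. Over all 10 libraries, Tlr7 averaged 69.8 RPM per kb ± 10.8 (SD, n = 10) and Tlr13, a receptor for bacterial ribosomal RNA, averaged 41.8 RPM per kb ± 9.15 (SD, n = 10). Tlr7 was above Tlr13 in 10 of 10 libraries. Cd14 followed at 19.8 RPM per kb ± 4.63 (SD, n = 10), below Tlr13 with no overlap of values. It overlapped the next gene, Tlr9, and was above it in 7 of 10 libraries. Next stood a group whose neighbours overlapped: Tlr9 (16.2 RPM per kb), a receptor for unmethylated DNA; Tlr3 (15.3 RPM per kb), a receptor for double-stranded RNA; Tlr2 (14.7 RPM per kb); and Tlr4 (12.8 RPM per kb). Tlr1 averaged 9.94 RPM per kb ± 1.74 (SD, n = 10). Tlr6 averaged 3.33 RPM per kb ± 0.398 (SD, n = 10), and Myd88 was lowest at 1.76 RPM per kb ± 0.458 (SD, n = 10), with no overlap between these last 3 genes. The order of the middle group differed by group: on the scale of RPM per kb, Tlr2 ranked 4th of the 10 genes in aged (18.5) and 7th in young (10.3) libraries. Cd14 ranked 3rd in aged (24.9), young (18.0) and labelled deltaMG (21.2) libraries and 6th in those labelled control (13.6).

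**Figure D1:**
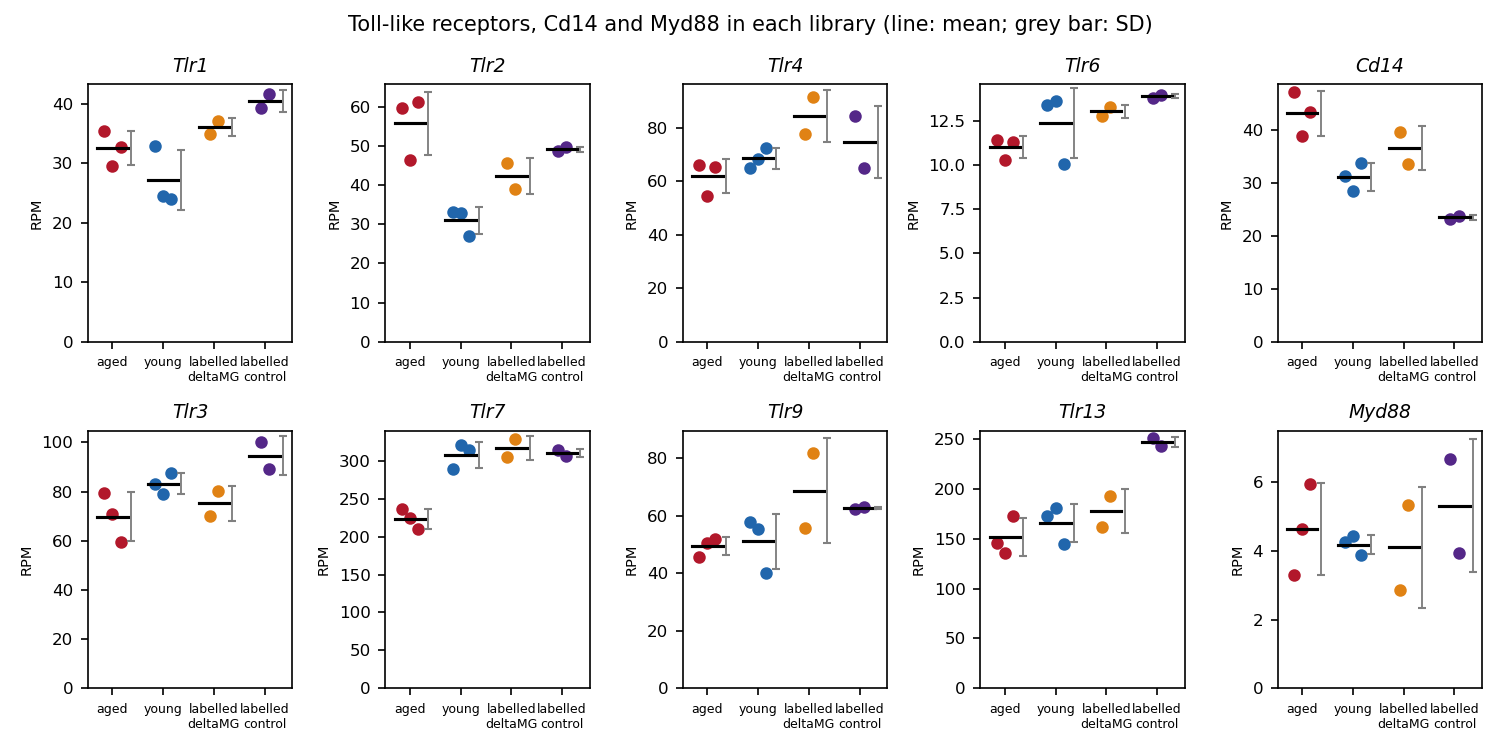
Level of each of the 10 genes in RPM, one panel a gene, with a point for each library a line for the group mean and a grey bar for the SD, for aged, young, labelled deltaMG and labelled control libraries. Aged points of Tlr2 (46.4 to 61.1 RPM) lie above all young points (27.1 to 33.1 RPM), and aged points of Tlr7 (209.9 to 236 RPM) lie below all young points (289 to 321 RPM).

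Libraries of aged microglia had more Tlr2 RNA and less Tlr7 RNA than libraries of young microglia. These were the 2 genes called among the 9 that could be tested, where a call is a limma adjusted p under 0.05. Over all 4151 genes tested, 6.14% were called, 131 higher (3.16%) and 124 lower (2.99%) in aged libraries. With median-of-ratios scaling the split over all genes was 221 higher and 107 lower. The median log2 fold change was -0.13 over the 9 genes and -0.05 over all genes tested. Fold changes are differences of log2(RPM + 1), which understates the change of genes with low values. In bulk samples such as these, fewer cells of a type and less RNA per cell cannot be told apart.

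Tlr2 (chromosome 3, 83836272 to 83841767, minus strand) was at 59.7, 46.4 and 61.1 RPM in aged libraries, against 33.1, 33.0 and 27.1 RPM in young libraries. Every aged library was above every young one. The rise was 1.77-fold, a log2 fold change of 0.82 with a 95% interval of 0.51 to 1.12 and a limma adjusted p of 0.00416. Among the libraries left out one at a time, none ended this call, with a highest adjusted p of 0.0247. The neutrophil markers moved in the same direction: with their score as a covariate the log2 fold change of Tlr2 was 0.64 (limma adjusted p = 0.0161), and without aged replicate 3, the library with the most neutrophil RNA, it was 0.75 (limma adjusted p = 0.0129). Without a filter on low values the adjusted p was 0.0991. The partners of Tlr2 were not called. Tlr1 was at 35.4, 29.6 and 32.8 RPM in aged libraries, against 32.9, 24.6 and 24.0 RPM in young libraries, with overlap (log2 fold change 0.26, limma adjusted p = 0.324). Tlr6 was at 10.3 to 11.4 RPM in aged and at 10.1 to 13.6 RPM in young libraries (log2 fold change -0.14, limma adjusted p = 0.693), on 70 to 107 reads per library over the whole series.

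Cd14, which hands lipopolysaccharide to Tlr4 and assists Tlr2, was at 47.3, 38.9 and 43.4 RPM in aged libraries, against 31.4, 28.5 and 33.8 RPM in young libraries. All aged values were above all young values. Its log2 fold change was 0.45 with a 95% interval of 0.17 to 0.74, or 1.37-fold, and it missed the threshold at a limma adjusted p of 0.0590. It passed in 2 of 18 alternative settings, with median-of-ratios scaling (adjusted p = 0.0393) and without aged replicate 2 (adjusted p = 0.0369). Tlr4 itself was at 66.1, 54.5 and 65.4 RPM in aged libraries, against 64.9, 68.2 and 72.7 RPM in young libraries. The ranges overlapped, with a log2 fold change of -0.15 (limma adjusted p = 0.591). Non-overlap of ranges was seen in 3 of the 9 genes, Tlr2, Cd14 and Tlr7, and in 23.9% of all genes tested, with 8.41% above and 15.5% below.

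Among the endosomal receptors, Tlr7 (chromosome X, 167304929 to 167330558, minus strand) was at 236, 225 and 209.9 RPM in aged libraries, against 289, 321 and 315 RPM in young libraries. All aged libraries lay below all young ones, and the 4 libraries of the other comparison, at 306 to 328 RPM, lay within or just above the young range. The log2 fold change was -0.46 with a 95% interval of -0.69 to -0.23, a 1.38-fold fall with a limma adjusted p of 0.0221. This call was lost in 8 of 19 alternative settings, with the log2 fold change between -0.51 and -0.35 in all of them. It was lost without aged replicate 3 (adjusted p = 0.0804), without young replicate 1 (0.0515), 2 (0.0814) or 3 (0.0740), and with the neutrophil score as covariate (0.0861). All 7 microglial markers were lower in aged libraries too, with log2 fold changes of -0.86 to -0.49. Whether Tlr7 fell apart from them was not tested.

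The remaining endosomal receptors were not called. Tlr3 was at 79.3, 70.9 and 59.3 RPM in aged libraries, against 83.1, 79.0 and 87.7 RPM in young libraries. One aged library reached the young range, and the log2 fold change was -0.26 (limma adjusted p = 0.268). Tlr9 was at 45.7, 50.7 and 51.8 RPM in aged libraries, against 57.8, 55.4 and 40.0 RPM in young libraries. Its log2 fold change was -0.03 (limma adjusted p = 0.943), and its sign changed with the scaling. Tlr13 (chromosome X, 106143204 to 106160493, plus strand) was at 146, 136 and 172 RPM in aged libraries, against 173, 180 and 144 RPM in young libraries, with overlap (log2 fold change -0.13, limma adjusted p = 0.630).

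Myd88 (chromosome 9, 119335934 to 119341411, minus strand) stayed below the minimum of 10 RPM for testing. It was at 3.29, 4.64 and 5.97 RPM in aged libraries, against 4.25, 4.43 and 3.89 RPM in young libraries. Young values lay inside the aged range. These levels rest on 21 to 47 reads per library over the whole series, and no difference was tested. The annotation places Slc22a14 over all 5478 bases of Myd88 on the same strand, but it was listed at 0 in all 10 libraries. Acaa1a overlaps 1736 bases of Myd88 on the opposite strand and was at 1.51 to 3.71 RPM, and no strand setting is given in the sources used here.

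**Figure D2:**
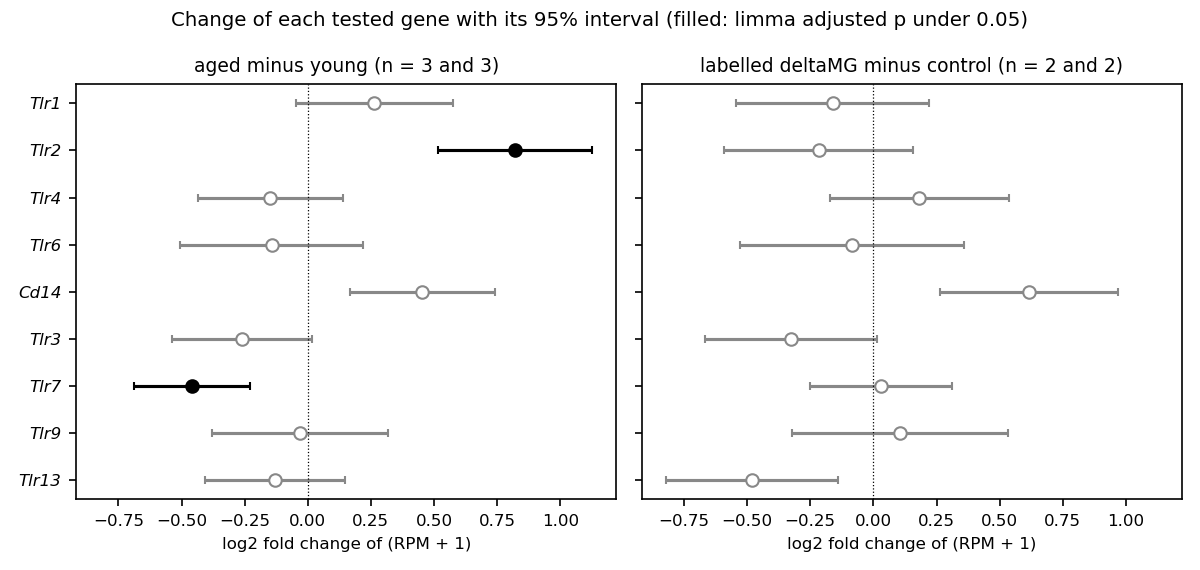
Log2 fold change of the 9 tested genes with 95% intervals and filled points for called genes, aged minus young on the left and libraries labelled deltaMG minus libraries labelled control on the right. Tlr2 (0.82) and Tlr7 (-0.46) were called in the comparison of ages and none of the 9 in the other, where Cd14 had the highest value (0.62) and Tlr13 the lowest (-0.48).

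The makeup of the receptor set differed between ages. The endosomal receptors Tlr3, Tlr7, Tlr9 and Tlr13 gave 72.6%, 75.7% and 72.4% of the summed RPM per kb of the 8 receptors in aged libraries, against 79.9%, 81.6% and 81.3% in young libraries. The ranges did not overlap, and the means were 73.6% ± 1.87 and 80.9% ± 0.913 (SD, n = 3 each). The share of Tlr2 was 11.97%, 10.2% and 12.5% in aged libraries, against 6.12%, 5.89% and 5.25% in young libraries. Tlr7 was 2.92, 3.58 and 2.54 times as high as Tlr2 per kb in aged libraries, against 6.44, 7.19 and 8.59 times in young libraries. These shares rest on the same values as the calls of Tlr2 and Tlr7 and are no separate evidence. In the libraries labelled deltaMG the endosomal share was 76.8% and 78.8%, against 78.6% and 79.0% in those labelled control, with overlap.

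**Figure D3:**
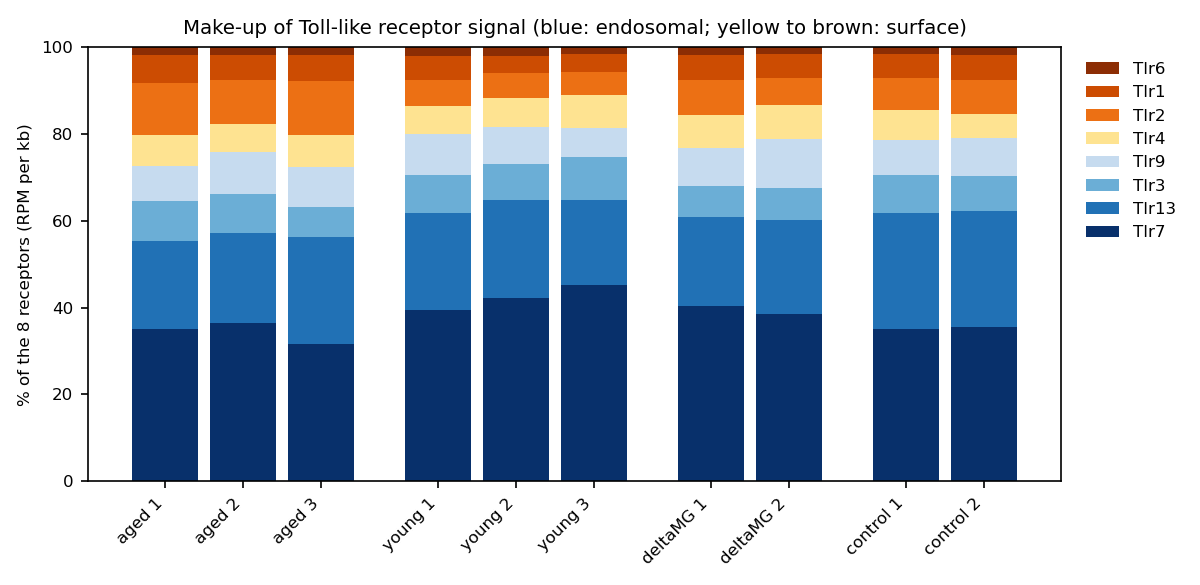
Share of each of the 8 receptors in their summed RPM per kb, one stacked bar a library, in percent. Endosomal receptors take 72.4% to 75.7% of the bar in aged and 79.9% to 81.6% in young libraries.

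Tlr7, Tlr8 and Tlr13 lie on the X chromosome, and the aged and young libraries differ in Xist. Leaving Xist out, 139 X-linked genes were tested, with a median log2 fold change of 0.01 for aged minus young, against -0.05 for 3990 genes elsewhere. Of the X-linked genes, 1 was called higher and 6 lower, and 4.32% were called lower, against 2.91% of the others. From the lowest log2 fold change up, Tlr7 ranked 14th of the 139, Tlr13 42nd and Tlr8 137th. Tlr7 (-0.46) and Tlr13 (-0.13, limma adjusted p = 0.630) had negative log2 fold changes and Tlr8 (1.17) a positive one. The part of sex in these differences was not tested, and age and sex cannot be told apart for any of the 3. Summed Y-linked RNA was 35.7 to 48.7 RPM in aged and at most 0.288 RPM in young libraries. The 4 libraries of the other comparison carried it together with Xist, so each held RNA that marks both sexes. The Y-linked sum was 20.3 and 9.11 RPM in libraries labelled deltaMG, against 19.3 and 25.8 RPM in those labelled control. The part of this mix in the differences between the labels was not tested. In those 4 libraries Tlr2, which is not X-linked, was at 39.1 to 49.6 RPM, above all young libraries and below or within the aged range, while Tlr7 was at the young level.

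**Figure D4:**
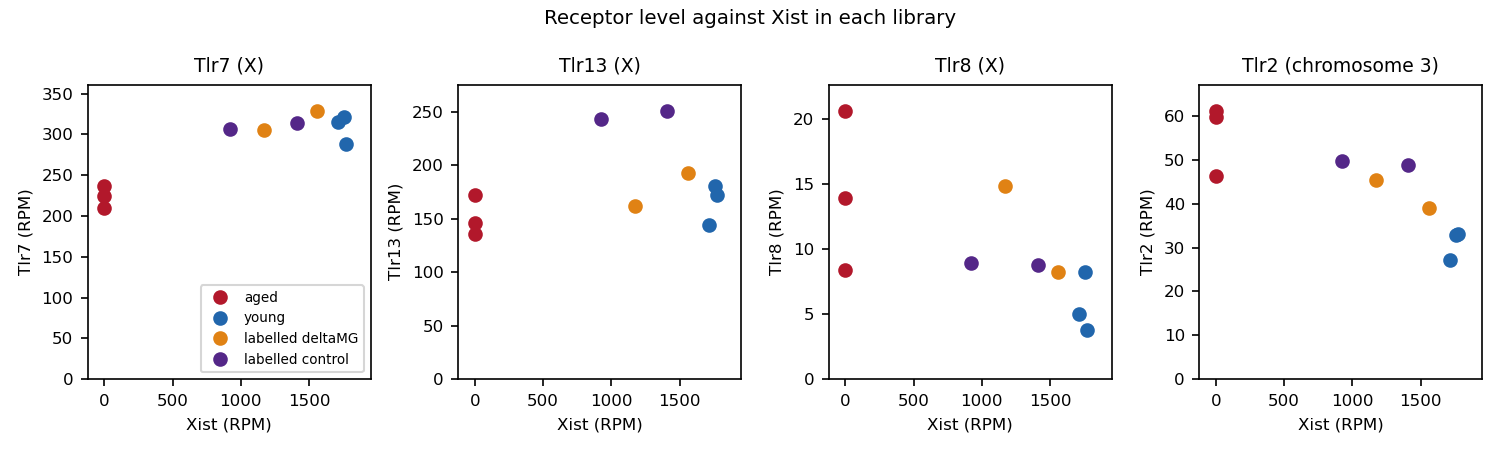
RPM of the X-linked receptors Tlr7, Tlr13 and Tlr8 and of Tlr2 on chromosome 3 against RPM of Xist, one panel a receptor and one point a library. Aged libraries sit near 0 on the Xist axis, young libraries at 1715 to 1771 RPM, and the libraries labelled deltaMG and control at 924 to 1562 RPM.

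In the libraries labelled Rab7 deltaMG, none of the 9 genes was called against those labelled control by limma, and 2 had an unadjusted p under 0.05, Cd14 and Tlr13. Of all genes tested, 3.78% were called (1.2% higher and 2.58% lower), and 18.8% had an unadjusted p under 0.05. The median log2 fold change was -0.08 over the 9 genes and -0.02 over all genes tested. Ranges did not overlap in 6 of the 9 genes, but with 2 libraries a group this held for 51.8% of all genes. Cd14 was above, where 25.2% of all genes were, and Tlr1, Tlr2, Tlr3, Tlr6 and Tlr13 were below, where 26.6% of all genes were.

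Cd14 was at 39.7 and 33.7 RPM in libraries labelled deltaMG, against 23.2 and 23.8 RPM in libraries labelled control. Both labelled deltaMG were above both labelled control, and those labelled control were also below all 3 young libraries. The log2 fold change was 0.62 with a 95% interval of 0.26 to 0.97, or 1.53-fold, with a limma adjusted p of 0.0517. It passed the threshold with the spread taken from these 4 libraries alone (adjusted p = 0.0125), with median-of-ratios scaling (0.0431), and without aged replicate 2 (0.0403) or 3 (0.0304), which enter only through the shared spread. Those were 4 of 18 alternative settings, and the log2 fold change was 0.50 to 0.73 when a library was left out. The sum of neutrophil markers was also higher in libraries labelled deltaMG, and with their score as covariate the log2 fold change of Cd14 was 0.61 (limma adjusted p = 0.119) and, for aged minus young, 0.45 (limma adjusted p = 0.137).

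Tlr13 was at 162 and 193 RPM in libraries labelled deltaMG, against 250.4 and 243 RPM in libraries labelled control. The values labelled control were above all other 8 libraries of the series. The log2 fold change was -0.48 with a 95% interval of -0.82 to -0.14, a 1.40-fold lower level, with a limma adjusted p of 0.113. It passed with the spread of these 4 libraries alone (adjusted p = 0.0364) and with the neutrophil score, where the log2 fold change was -0.71 (adjusted p = 0.0205). Those were 2 of 19 alternative settings, and the log2 fold change was -0.61 to -0.35 when a library was left out. Tlr3 was at 70.2 and 80.3 RPM in libraries labelled deltaMG, against 100.2 and 89.0 RPM in those labelled control (log2 fold change -0.33, limma adjusted p = 0.288). Tlr7 was at 306 and 328 RPM in libraries labelled deltaMG, against 314 and 306 RPM in those labelled control (log2 fold change 0.03, limma adjusted p = 0.943). Tlr9, at 55.8 and 81.7 RPM in libraries labelled deltaMG, enclosed the 62.4 and 63.0 RPM of those labelled control.

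No surface receptor was called in the libraries labelled deltaMG. Tlr2 was at 45.5 and 39.1 RPM there, against 48.7 and 49.6 RPM in libraries labelled control (log2 fold change -0.22, limma adjusted p = 0.564). Tlr1 was at 35.0 and 37.2 RPM in libraries labelled deltaMG, against 39.2 and 41.7 RPM in those labelled control (log2 fold change -0.16, limma adjusted p = 0.698). Tlr6 had a log2 fold change of -0.08 (limma adjusted p = 0.890). Tlr4 was at 77.7 and 91.4 RPM in libraries labelled deltaMG, against 84.4 and 65.1 RPM in those labelled control, with overlap. Myd88 was at 2.87 and 5.35 RPM in libraries labelled deltaMG, against 6.69 and 3.95 RPM in those labelled control.

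Of 72 other genes of the pathway, 46 passed the filter on low values, which some did through the libraries where they were higher. Tlr8, Tnf and Cxcl2 passed it only through their aged libraries, so for these genes the filter favoured a higher level in aged libraries. In the comparison of ages 3.16% of all genes were called higher in aged libraries. Of the pathway genes 6 were called, all higher, a direction that the filter favoured for Tlr8, Tnf and Cxcl2 among them. They were the receptor Tlr8, a sensor of RNA whose mouse form differs from the human one, and 5 genes that the pathway induces. Tnf, a central inflammatory cytokine, was at 15.8 RPM ± 1.05 in aged and 7.02 RPM ± 0.381 in young libraries (SD, n = 3 each; log2 fold change 1.07, limma adjusted p = 0.00512). Il1b, a cytokine made as an inactive precursor, was at 104 RPM ± 38.7 in aged and 37.6 RPM ± 13.6 in young libraries (SD, n = 3 each; log2 fold change 1.43, limma adjusted p = 0.00810). The chemokines Ccl3 (log2 fold change 0.84) and Cxcl2 (1.20) and the surface protein Cd83 (0.83) were also higher in aged libraries, with limma adjusted p of 0.00750, 0.0206 and 0.00380. Neutrophils also express Il1b and Cxcl2, and the neutrophil sum was highest in the aged library with the highest Il1b and Cxcl2, replicate 3. Once the neutrophil score was a covariate, the log2 fold change of Il1b was 0.83 (limma adjusted p = 0.00143) and that of Cxcl2 was 0.91 (limma adjusted p = 0.0713). Without aged replicate 3 Cxcl2 was not called (limma adjusted p = 0.0804), nor without aged replicate 1 (0.0669) or young replicate 1 (0.107). Tlr8 was at 13.9, 8.38 and 20.6 RPM in aged libraries, against 3.78, 8.20 and 5.04 RPM in young libraries (log2 fold change 1.17, limma adjusted p = 0.0425). It was no longer called with the neutrophil score as covariate (0.67, limma adjusted p = 0.181) or without aged replicate 3 (0.88, limma adjusted p = 0.129), and leaving out aged replicate 1, young replicate 1 or 3, or either library labelled control also ended the call, at adjusted p of 0.0703 to 0.175. With no filter on low values Tnf alone of the 6 was called, and the others had adjusted p of 0.0891 to 0.452.

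No trafficking gene, protease, adaptor, transcription factor or inhibitor of the lists was called in the comparison of ages. Of the 9 accessory and trafficking genes tested, Unc93b1, which carries endosomal receptors out of the endoplasmic reticulum, had the smallest p, with a log2 fold change of -0.28 (limma adjusted p = 0.228). Of the 4 proteases it was Lgmn (-0.57, limma adjusted p = 0.0732), of the 13 adaptors, kinases and ligases Tbk1 (-0.38, limma adjusted p = 0.132), and of the 3 transcription factors Nfkb1 (-0.35, limma adjusted p = 0.165). All 6 tested genes of the list named inhibitors, which includes Nfkbiz, had positive log2 fold changes. Their median was 0.45, against -0.05 over all genes tested. The smallest p was that of Tnfaip3, which edits ubiquitin chains (0.57, limma adjusted p = 0.0635).

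In the libraries labelled deltaMG, 3 proteases of the endosome and 1 of its nucleases were lower. Of the 46 pathway genes tested, 8 were called, 3 higher and 5 lower, against 3.78% over all genes. Ctss, a cathepsin, was at 586 RPM ± 114 in libraries labelled deltaMG and 1583 RPM ± 515 in libraries labelled control (SD, n = 2 each; log2 fold change -1.41, limma adjusted p = 0.00169). Ctsl (163 against 391 RPM; log2 fold change -1.24) and Ctsb (359.9 against 703 RPM; log2 fold change -0.97) were lower with it, also at a limma adjusted p of 0.00169. Without control replicate 1 the adjusted p of these 3 genes was 0.0615. Pld3, an endosomal exonuclease that degrades ligands of Tlr9, was at 9.24 RPM ± 3.10 in libraries labelled deltaMG and 31.4 RPM ± 0.753 in those labelled control (SD, n = 2 each; log2 fold change -1.70, limma adjusted p = 0.00111). In aged and young libraries these 4 genes lay nearer to the libraries labelled deltaMG: Ctss, for example, was at 520.5 to 663 RPM in aged and 454 to 563 RPM in young libraries.

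Il1b was higher in libraries labelled deltaMG, at 117 and 83.2 RPM against 34.9 and 24.7 RPM in those labelled control (log2 fold change 1.71, limma adjusted p = 0.00875). Ptgs2, the inducible cyclooxygenase, was at 43.8 and 19.1 RPM in libraries labelled deltaMG, against 11.0 and 8.46 RPM in those labelled control (log2 fold change 1.49, limma adjusted p = 0.0449). Tlr5, the flagellin receptor, was at 13.02 and 14.0 RPM in libraries labelled deltaMG, against 6.54 and 6.35 RPM in those labelled control (log2 fold change 0.96, limma adjusted p = 0.0449), and leaving out any library but aged replicates 2 and 3 ended that call (adjusted p up to 0.267). Cd83 was lower in libraries labelled deltaMG, at 35.0 and 28.6 RPM against 62.4 and 57.5 RPM in those labelled control (log2 fold change -0.90, limma adjusted p = 0.00822). With 2 libraries a group, single libraries decided several of these calls. Leaving out deltaMG replicate 1 (adjusted p = 0.144) or control replicate 1 (0.0615) or 2 (0.136) ended the call of Il1b, and with the neutrophil score its log2 fold change was 0.82 (limma adjusted p = 0.0162). Leaving out deltaMG replicate 2 (adjusted p = 0.0837) or control replicate 1 (0.161) or 2 (0.0570) ended that of Cd83. The call of Ptgs2 ended without deltaMG replicate 1 (adjusted p = 0.402), either control library, aged replicate 1 or young replicate 1 or 2, and with the neutrophil score its log2 fold change was 0.57 (limma adjusted p = 0.308). With no filter on low values none of the 8 was called, with limma adjusted p of 0.0606 for Pld3, 0.0734 for Ctsb, 0.136 for Ctsl, 0.220 for Ctss and 0.397 for Il1b. The smallest p in the lists without a call belonged to Tab2 (0.31, limma adjusted p = 0.256), Irf5 (-0.12, limma adjusted p = 0.806) and Tnfaip3 (0.30, limma adjusted p = 0.489), all not called.

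**Figure D5:**
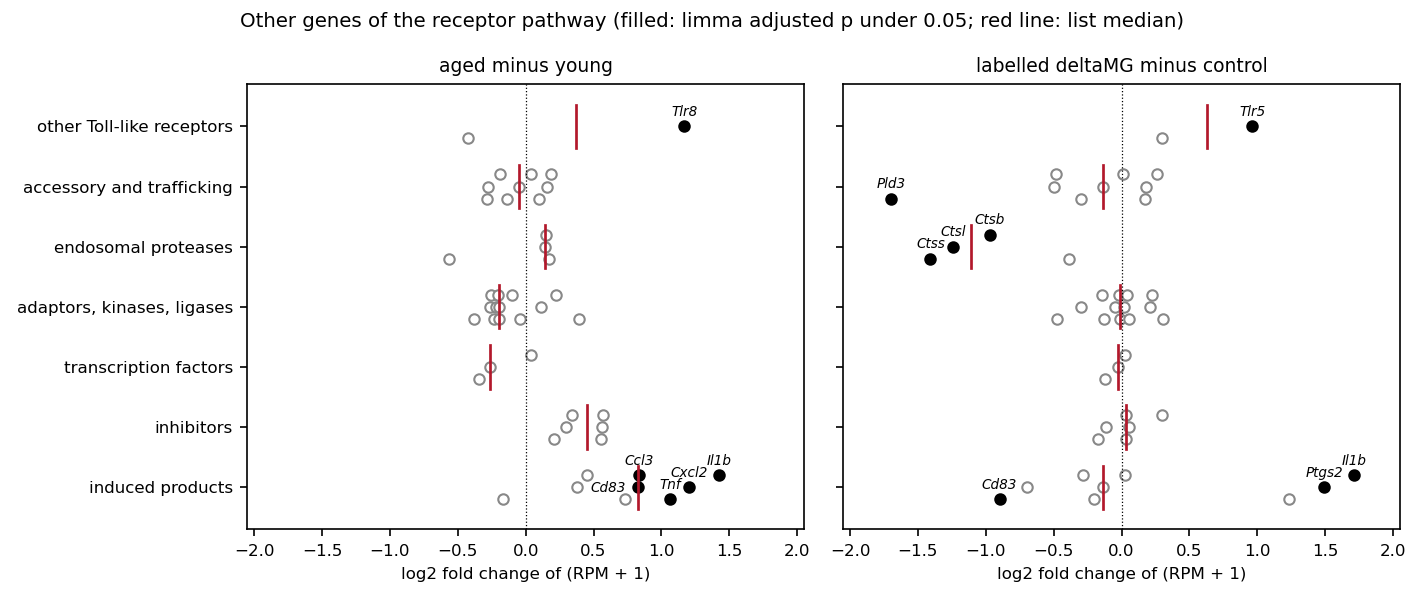
Log2 fold change of the 46 tested pathway genes by list, one point a gene, aged minus young on the left and libraries labelled deltaMG minus those labelled control on the right, with filled points for called genes and a red line for each list's median. The called genes of the comparison of ages are all higher, a direction that the filter favoured for Tlr8, Tnf and Cxcl2. The proteases in the other comparison reach -1.41.

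Genes whose log2(RPM + 1) followed a receptor most closely over the 10 libraries are given as a description, since the libraries share their groups. Tlr2 was most like Fgl2, a secreted fibrinogen-like protein (Pearson r = 0.95), and the Y-linked helicase Ddx3y (0.93). Tlr7 was most like Xist (r = 0.97) and Tmem181b-ps (0.95). Tlr13 was most like Abhd17c (r = 0.97) and Map3k1 (0.96), and Tlr3 followed Fam102b (0.95). Cd14 was most like Tiparp (r = 0.92) and the immediate early gene Nr4a1 (0.90). For the others the closest pairs were Tlr1 with H2-DMa (0.93) and Fbxo3 (0.92), Tlr4 with Napg (0.96) and Arhgap4 (0.93), Tlr6 with Fam120b (0.95) and Cd33 (0.94), and Tlr9 with Prkcd (0.98) and Tmem175 (0.96). Among the genes themselves, Tlr13 and Cd14 ran most strongly against each other (r = -0.82, n = 10 libraries), and Tlr6 ran most strongly with Tlr13 (r = 0.81). With the neutrophil score, r was 0.71 for Cd14, 0.42 for Tlr2, -0.56 for Tlr7 and -0.85 for Tlr3 over the same 10 libraries.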

How the data were processed

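Total RNA of bead-isolated microglia was amplified (NuGEN Ovation) and made into Ion Xpress libraries, per the labels' protocols. The authors deposited 1 table of values read here as RPM, since most low values were multiples of a step of 0.101 to 0.164 RPM, a read's worth, above a constant of 0.0001 in every cell, which was subtracted. Depending on the library, 94.2% to 94.6% of the values no larger than 500 reads came within 0.05 of a whole number, so whole reads were not recovered and no count model was used. Listed genes summed to 18.7% to 23.5% of the scaling total. The submitters' processing notes name GRCm38, mm10 and FastQC; aligner, counter, annotation, normalisation and strand setting were not given in the sources used here.

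The 4151 genes that reached 10 RPM in 2 or more of the 10 libraries were fitted as log2(RPM + 1) in R 4.3.3 by limma 3.58.1, in 1 model of all 4 groups with 6 residual degrees of freedom. Benjamini-Hochberg adjusted p under 0.05, over all genes tested, was a call. Exon lengths and positions came from GENCODE M21 (GRCm38). The fit was tested on simulated data. Python 3.11.15 and matplotlib 3.10.9 were also used.

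All 10 members were named, with every called pathway gene, the smallest p where a list had no call, and the 2 genes most like each tested member. A gene that met the last rule for Tlr3 is not reported here. Members and lists were chosen with earlier results of these data known. Results were recomputed with other filters, pseudocounts and scalings, each comparison's own groups, a replicate block, a neutrophil score (the mean log2(RPM + 1) of the neutrophil markers) as covariate and leaving out each library.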

Additional observations from a re-analysis of the deposited data

How the results depend on the processing

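The count of called genes among the 9 in the comparison of ages was 2. It was 0 with no filter, 1 with at least 50 RPM in at least 3 libraries, 1 with the spread of these groups alone, 1 with a replicate block and 1 with the neutrophil score as covariate, and ranged from 1 to 3 when a library was left out. Over all genes the count was 255, and 52, 116, 121, 66 and 160 under the same settings in the same order, with 92 to 419 when a library was left out. For libraries labelled deltaMG minus labelled control the count among the 9 was 0. It was 1 with median-of-ratios scaling, 2 with the spread of these groups alone and 1 with the neutrophil score, and 0 to 1 when a library was left out. Over all genes it was 157, and 66 with no filter, 62 at the stricter minimum, 510 with the spread of these groups alone and 69 with a replicate block, with 22 to 307 when a library was left out. In the comparison of ages the replicate numbers did not pair the libraries: same-numbered aged and young libraries had correlations of deviations of -0.14, -0.24 and -0.39, and 0 of 3 aged libraries correlated best with its own number. With the block Tlr7, aged minus young, had a limma adjusted p of 0.128. Between the labels same-numbered libraries had 0.12 and the others -0.12. With 2 libraries a group these values mirror each other, so pairing cannot be judged there. Directions turned only for small differences. Tlr9, aged minus young, was 0.017 with median-of-ratios scaling, 0.0074 with quantile normalization and -0.19 to 0.065 when a library was left out. For libraries labelled deltaMG minus labelled control, Tlr9 was -0.0098 with the neutrophil score and -0.17 to 0.38, Tlr7 -0.021 to 0.082 and Tlr4 -0.0024 to 0.37 when a library was left out. The neutrophil score moved the median of all genes to -0.11 and -0.13 in the comparisons of ages and of labels, and leaving out aged replicate 3 moved it to -0.11 in the comparison of ages. The causes were not tested. Where a library left out leaves 1 in its group, that library is assumed to vary like the other groups. Depth limits Tlr6 and Myd88 most, since few reads lie behind them.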
